A study of Mus musculus with 12 samples.

Results

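The 32 genes described here encode aminoacyl-tRNA synthetases, and the scaffold proteins that hold some of them together, other than the synthetases best known from inherited neuropathy. They were taken by gene symbol from 38924 genes in each deposited table, as a set chosen with earlier results of these data known. The set holds 13 cytosolic synthetase genes (Cars, Dars, Eprs, Farsa, Farsb, Iars, Lars, Nars, Qars, Rars, Sars, Tars and Vars), the 3 complex scaffolds Aimp1, Aimp2 and Eef1e1, and 16 mitochondrial synthetases (Aars2, Cars2, Ears2, Fars2, Hars2, Iars2, Lars2, Mars2, Nars2, Pars2, Rars2, Sars2, Tars2, Vars2, Wars2 and Yars2). All 32 were detected in every library and passed the filter on low counts.

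Polyadenylated RNA of whole spinal cord was sequenced from mice aged 8 weeks on the B6J.Cg background, in 12 libraries. The study compared wild-type mice (WT) with mice heterozygous for C201R in Gars, the gene of glycyl-tRNA synthetase. By title, 6 libraries were C201R (numbers 1, 2, 3, 10, 11 and 12) and 6 were WT (numbers 4 to 9), each with 3 titled female and 3 titled male. The genotype tag follows the titles, reading C201R+/- for C201R and C201R+/+ for WT. The library names in the sample descriptions give another genotype in 4 libraries: 4 and 9 are titled WT and named C201R, and 11 and 12 are titled C201R and named WT. Genotype was therefore compared by title (6 against 6), by library name (6 against 6) and in the 8 libraries on which both labels agree (1, 2, 3 and 10 C201R, and 5 to 8 WT). These 3 comparisons share libraries, so their values stand side by side and none supports another. The labels name no promoter, Cre driver or transgene, and do not tie each library to its own mouse, so p-values reflect variation among these libraries, which may be technical.

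An aminoacyl-tRNA synthetase as a rule joins 1 amino acid to its tRNAs, and most amino acids have their own enzyme. The cytosol and the mitochondrion translate separately and mostly use synthetases from different nuclear genes, the mitochondrial gene often carrying a 2 at the end of its symbol. Several cytosolic enzymes sit in the multi-synthetase complex, held by the scaffolds Aimp1, Aimp2 and Eef1e1. Uncharged tRNAs activate the kinase Gcn2, which leads to translation of the transcription factor ATF4, and several cytosolic synthetase genes are textbook targets of ATF4.

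The libraries summed to between 27175421 and 38271405 estimated counts, with 22057 to 22579 genes above 0. Spinal cord Hox genes summed to 166 to 190 CPM (read counts after scaling for library size) in every library, against 2.48 to 4.09 CPM for 3 forebrain genes, 1 of which was at 0 throughout. Skeletal muscle markers ranged from 24.2 to 3423 CPM and were highest in libraries 1, 3, 6 and 8, of which 2 belong to each genotype by either label. Xist and Y-linked transcripts went against the titled sex in 6 of the 12 libraries. The 6 libraries with high Xist were 5 titled C201R and 1 titled WT, and by library name 3 of each genotype. Among the 8 libraries on which both labels agree, high Xist was seen in 3 C201R and 1 WT. The mutated gene itself, Gars, had 130 to 155 CPM, a level that a missense change may leave as it is and that therefore does not check the labels. By library name it had 143 to 155 CPM in C201R and 130 to 142 CPM in WT, without overlap, beside 0.585% of all genes higher without overlap. By title its groups overlapped.

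The mean levels of the 32 genes ran from 3.53 to 1250 TPM (a share of all transcripts, corrected for transcript length). The highest cytosolic genes were Sars (seryl enzyme) at 208 ± 11.1 TPM, Nars (asparaginyl enzyme) at 197 ± 8.76 TPM and Eprs at 57.8 ± 3.04 TPM (SD over 12 libraries). Eprs encodes 1 protein with both the glutamyl and the prolyl activity. The lowest cytosolic genes were Farsa (a phenylalanyl subunit) at 29.2 ± 1.72 TPM, Tars (threonyl) at 25.4 ± 1.45 TPM and Lars (leucyl) at 23.9 ± 2.22 TPM. Sars and Nars overlapped each other in range, and every other cytosolic gene lay below both of them. The 7 cytosolic genes in between, Iars, Farsb, Dars, Cars, Rars, Qars and Vars, had means from 33.0 to 50.8 TPM. Among the scaffolds, Aimp1 had 66.2 ± 5.30 TPM, Eef1e1 29.97 ± 1.48 TPM and Aimp2 22.8 ± 2.37 TPM.

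Mitochondrial synthetases were generally less abundant, with 1 exception. Lars2, the mitochondrial leucyl enzyme, had 1250 ± 351 TPM and stood above all other 31 genes in every library. Whether all of these reads come from Lars2 mRNA cannot be settled from gene-level tables, and this limit holds for every level, sum and ratio below that includes Lars2. After it came Iars2 (isoleucyl) at 28.3 ± 1.34 TPM and Hars2 (histidyl) at 26.8 ± 1.98 TPM. The lowest were Pars2 (prolyl) at 4.49 ± 0.669 TPM, Ears2 (glutamyl) at 4.46 ± 0.433 TPM and Wars2 (tryptophanyl) at 3.53 ± 0.451 TPM. The 10 others, Yars2, Vars2, Tars2, Aars2, Rars2, Nars2, Sars2, Fars2, Cars2 and Mars2, had means from 6.15 to 19.9 TPM. When the 32 means were ordered, only 4 of the 31 neighbouring pairs had ranges that did not overlap: Lars2 above Sars, Nars above Aimp1, Cars2 above Mars2, and Mars2 above Pars2. The ranges of the remaining neighbours overlapped, and whether their order holds within each library was not compared.

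**Figure D1:**
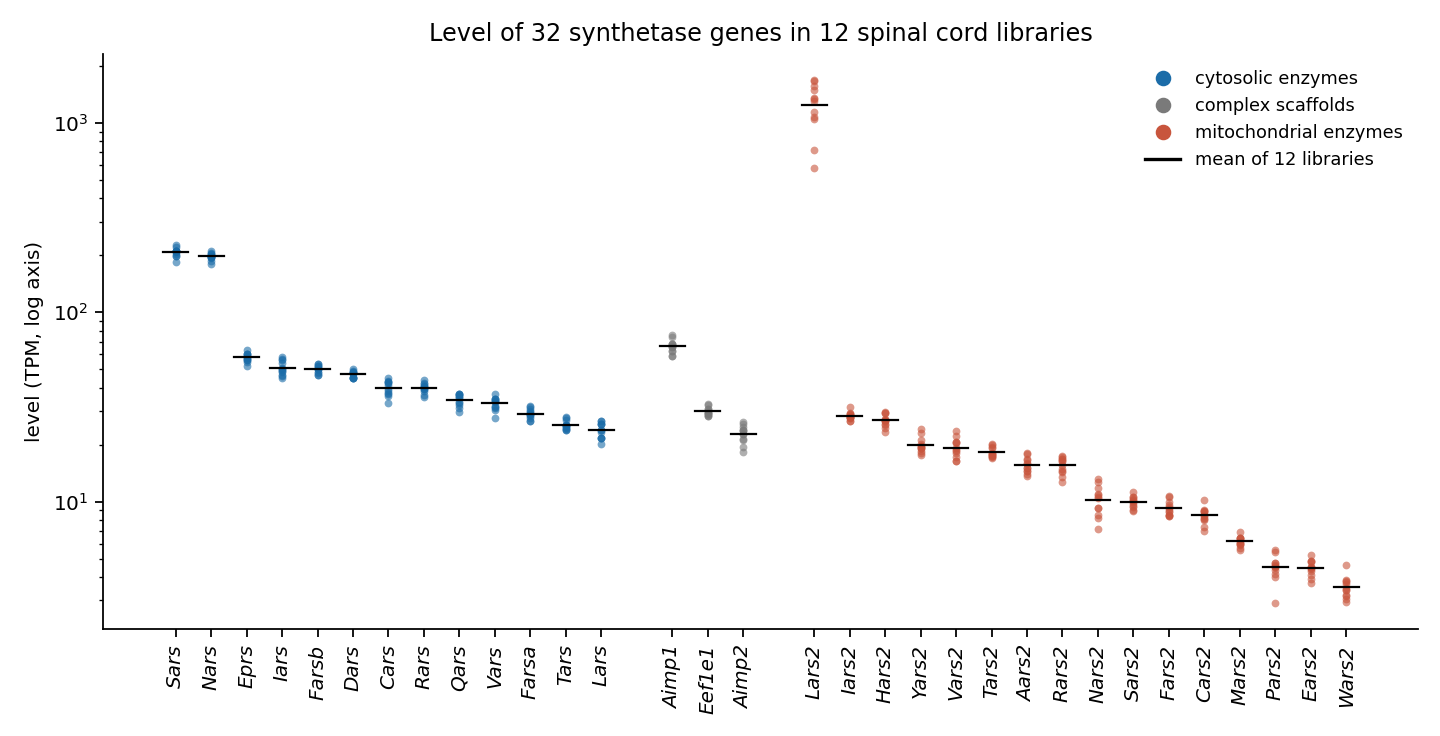
Level of each of the 32 genes in TPM (log axis), 1 point per library and a line at the mean of 12 libraries, grouped as cytosolic enzymes, complex scaffolds and mitochondrial enzymes. Lars2 stands at 1250 TPM, while the other 15 mitochondrial genes have means from 3.53 to 28.3 TPM and the cytosolic genes from 23.9 to 208 TPM.

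The median of the gene means was 40.0 TPM for the 13 cytosolic genes, 29.97 TPM for the 3 scaffolds and 12.9 TPM for the 16 mitochondrial genes. Of the 13 cytosolic genes, 11 had a mean above every mitochondrial gene other than Lars2. The sum over the class gives another picture, because 1 gene carries most of it. The cytosolic genes summed to 757 to 902 TPM per library and the mitochondrial genes to 784 to 1880 TPM, so that the cytosolic sum was 0.620 ± 0.202 times the mitochondrial sum (SD over 12 libraries). Lars2 alone made up 74.2 to 90.03% of the mitochondrial sum, and 0.114 to 0.333% of all counts in a library. Without Lars2 the mitochondrial sum was 184 to 222 TPM and the ratio was 4.18 ± 0.137, a setting added after the levels were seen. The ratio of class medians was 3.18 ± 0.209.

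Amino acids served by a gene of each class were compared within each library. Among pairs with the cytosolic gene higher, the seryl and asparaginyl enzymes had the highest mean ratios, with Sars 20.9 times Sars2 (range 18.7 to 22.5 over 12 libraries) and Nars 19.8 times Nars2 (range 15.7 to 25.0). Eprs was 13.1 times Pars2 (10.1 to 17.9) and 13.1 times Ears2 (10.7 to 15.5). Cysteinyl, phenylalanyl and arginyl enzymes were intermediate, with Cars 4.78 times Cars2, Farsb 5.46 and Farsa 3.18 times Fars2, and Rars 2.59 times Rars2. The smallest excess was that of Iars over Iars2 (1.79 times), Vars over Vars2 (1.73 times) and Tars over Tars2 (1.40 times, range 1.24 to 1.54). In these 11 pairings the cytosolic gene was higher in 12 of 12 libraries. Leucine was the reverse: Lars was 0.0212 times Lars2 (0.0122 to 0.0371), and lower in 12 of 12 libraries, a value that rests on the uncertain level of Lars2.

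**Figure D2:**
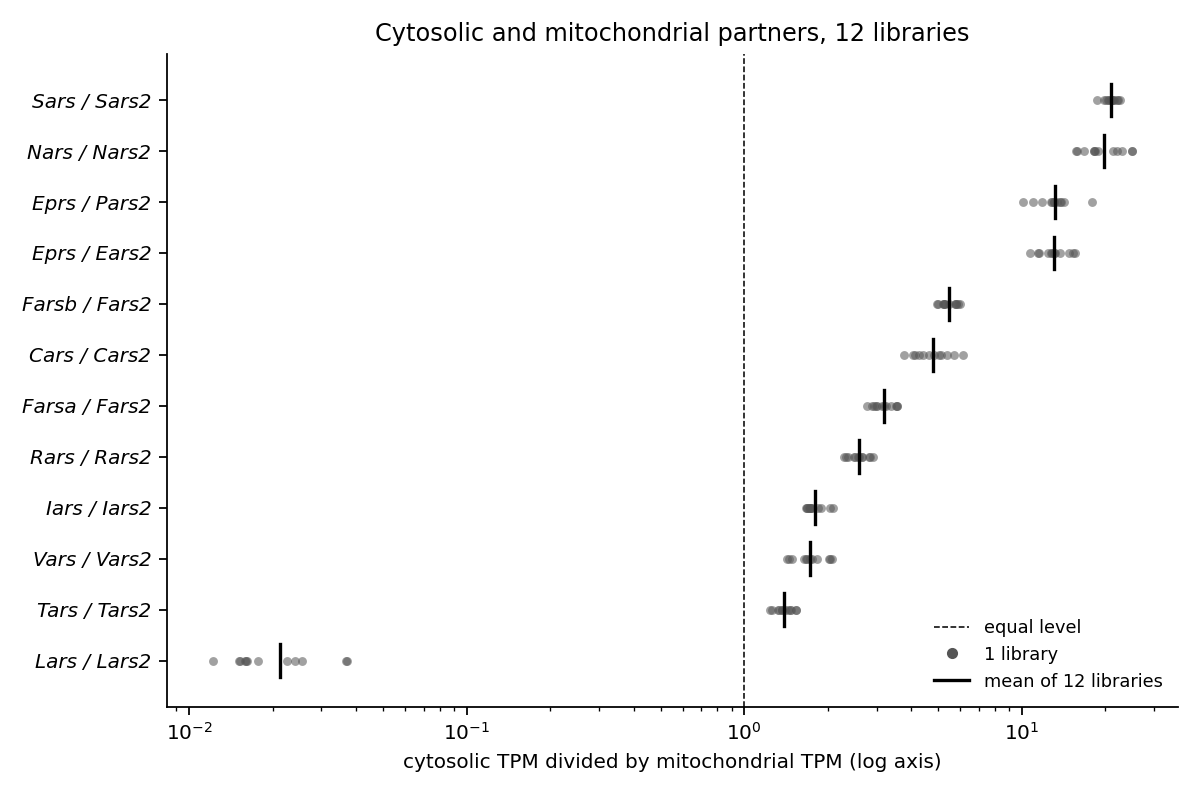
TPM of the cytosolic gene divided by TPM of the mitochondrial gene for the same amino acid (log axis), 1 point per library and a bar at the mean of 12 libraries. In 11 pairings every point lies right of the dashed line of equal level, from 1.40 times for Tars over Tars2 to 20.9 times for Sars over Sars2, and the leucine pair lies at 0.0212.

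The cytosolic genes varied little between libraries. The coefficient of variation of CPM over 12 libraries had a median of 3.78% for the cytosolic genes (2.66% for Nars to 8.32% for Lars). The median was 7.45% for the scaffolds and 6.41% for the mitochondrial genes, against 7.97% over all 17765 genes tested. Counting error alone would give 1.11% for Nars, 3.53% for Farsa (3.33% observed) and 5.86% for Sars2 (4.90% observed). It is larger for genes with fewer reads, and the classes were not compared at equal read counts. Lars2 stood apart at 29.2%, in the 99.2 percentile of the 2121 tested genes with a mean above 100 CPM. No other mitochondrial gene exceeded 11.9%, the value for Pars2. Cars, at 7.11%, and Lars were the cytosolic genes that varied most.

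By title, no gene of the 32 passed the threshold of an adjusted p under 0.05, and no gene at all passed among the 17765 tested by edgeR (0% called). The lowest edgeR adjusted p among the 32 was 0.712. Of the 13 cytosolic genes 10 had a log2 difference above 0 (median 0.02), of the 3 scaffolds 1 (median -0.01) and of the 16 mitochondrial genes 9 (median 0.01), where 50.7% of all genes were above 0 with a median of 0.00. Over 21 other settings the cytosolic count by title ran from 7 to 13 and its median from 0.00 to 0.05. All 13 were above 0 on TPM, where the other classes moved up too. There 2 of 3 scaffolds (median 0.04) and 10 of 16 mitochondrial genes (median 0.03 to 0.04) were above 0. The share of all genes above 0 on TPM is not given here. At an unadjusted edgeR p under 0.05 stood 1 gene in each direction, Pars2 higher and Nars2 lower, beside 6.77% of all genes (3.48% higher and 3.28% lower). No member had titled groups that did not overlap, against 0.349% of all genes.

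By library name 2 of the 13 cytosolic enzymes passed, Cars and Lars. In all, 12 of the 13 had a log2 difference above 0, with a median of 0.06 against 0.00 over all genes, 50.9% of which were above 0. Both genes that passed were higher, where 0.169% of all genes were called higher and 0.715% in either direction. Of the 3 scaffolds 1 was above 0 (median -0.02) and of the 16 mitochondrial genes 8 (median -0.01), and none of these 19 passed. At an unadjusted edgeR p under 0.05 were 6 cytosolic genes, all higher (Cars, Lars, Nars, Rars, Tars and Eprs), and 1 mitochondrial gene, lower (Nars2), beside 12.8% of all genes (5.98% higher and 6.81% lower). In 2 of the 32 genes, Cars and Nars, every library named C201R was above every library named WT, beside 0.585% of all genes. Over 21 other settings the number of cytosolic genes above 0 stayed between 11 and 13 and their median between 0.05 and 0.10. The mitochondrial count moved between 7 and 12 and its median between -0.02 and 0.04, so that class had no steady sign. The difference between the classes has no test here.

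**Figure D3:**
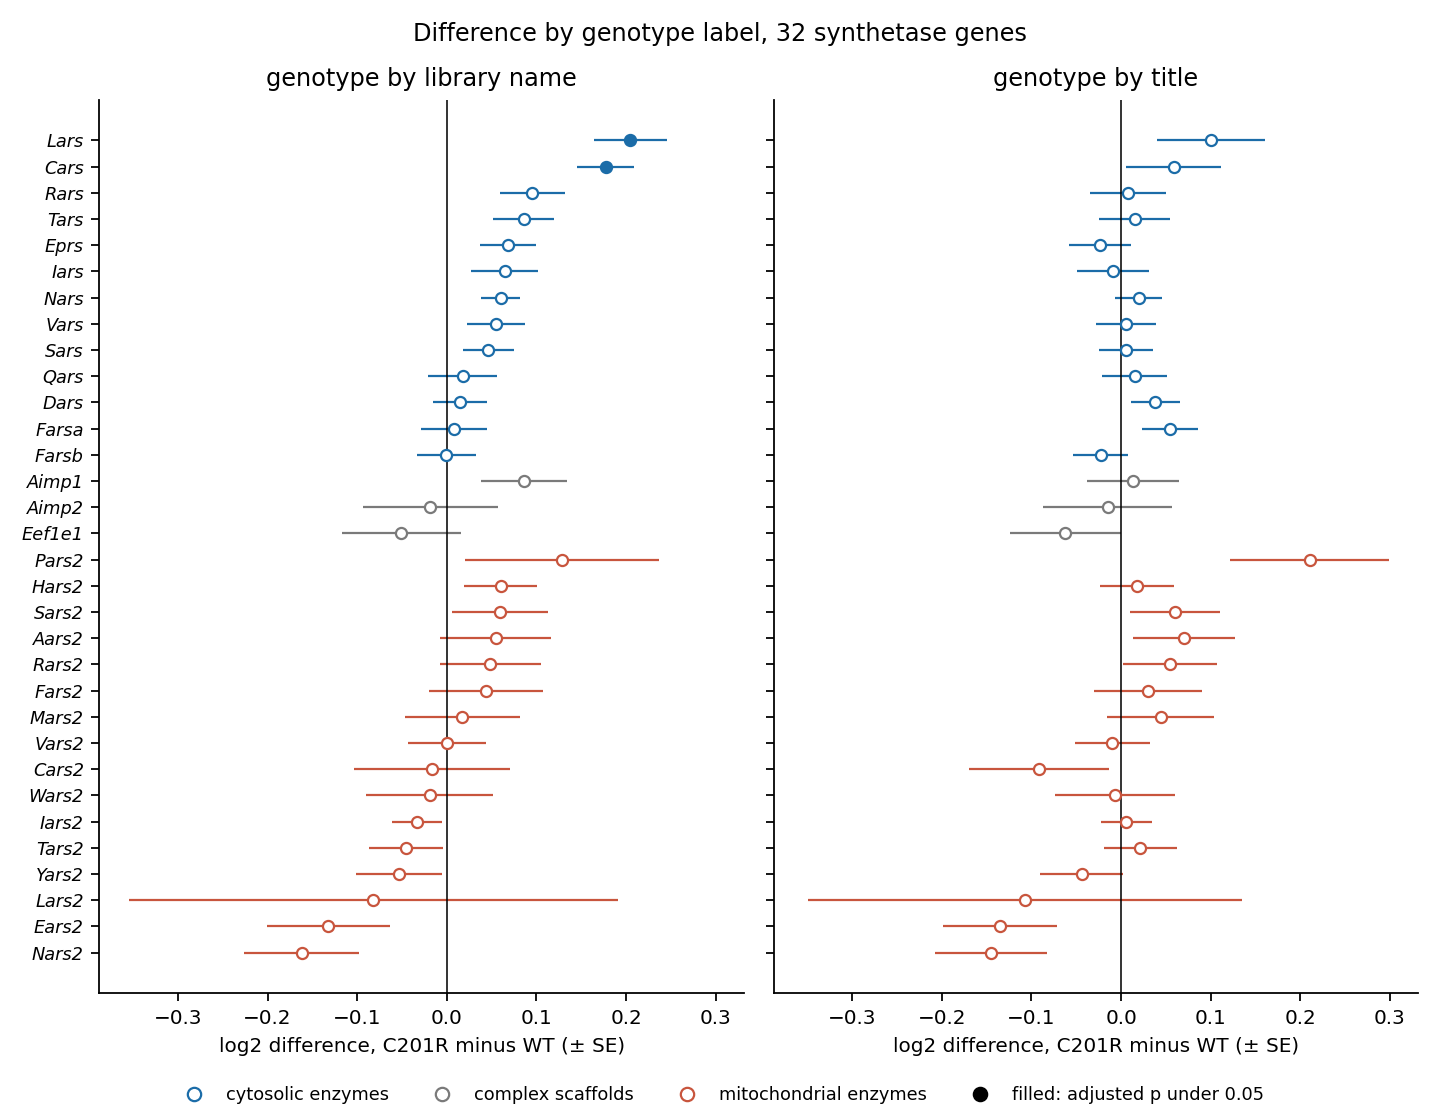
Log2 difference, C201R minus WT, with its standard error for the 32 genes by library name (left) and by title (right), coloured by class and filled where the edgeR adjusted p is under 0.05. By library name Lars at 0.20 and Cars at 0.18 are filled and 12 of the 13 cytosolic genes lie right of 0, and by title no point is filled.

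Cars encodes cysteinyl-tRNA synthetase, a cytosolic enzyme outside the multi-synthetase complex (chromosome 7, 143557230 to 143600090 on the minus strand, GRCm38 in GENCODE M21). In the 6 libraries named C201R its lowest, median and highest levels were 42.9, 45.1 and 47.6 CPM, against 39.0, 39.7 and 41.3 CPM in the 6 named WT. Every library named C201R lay above every library named WT, the 4 disputed libraries included. The means were 45.3 ± 1.59 and 40.0 ± 0.861 CPM (SD, n = 6 each), and Cars rose by 0.18 ± 0.03 in log2 units (± SE, edgeR adjusted p = 0.0235). By title the disputed libraries change sides and the groups overlap, with C201R at 43.5 ± 2.93 and WT at 41.7 ± 3.11 CPM, a difference of 0.06 ± 0.05 in log2 units (edgeR adjusted p = 0.896). In the 8 undisputed libraries Cars had 42.9, 44.6, 45.2 and 47.6 CPM in C201R (libraries 1, 2, 3 and 10) and 39.0, 40.7, 39.9 and 39.5 CPM in WT (libraries 5 to 8), an order kept below. These groups did not overlap, and the log2 difference of 0.17 ± 0.04 did not pass (edgeR adjusted p = 0.148). The call by library name was lost without the 4 muscle-rich libraries (log2 difference 0.21, edgeR adjusted p = 0.276), without library 4, 5, 7 or 8 (edgeR adjusted p from 0.0517 to 0.111) and with limma on deposited TPM (adjusted p = 0.340 and 0.342), whereas its log2 difference stayed between 0.16 and 0.21 over all 21 settings. An antisense gene, Gm15580, overlaps 211 exonic bases of Cars, and the strand setting of the counting is not given in the sources used here.

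Lars encodes leucyl-tRNA synthetase, a member of the multi-synthetase complex that is also known as a leucine sensor for mTORC1. The libraries named C201R had a lowest, median and highest level of 45.4, 50.05 and 51.7 CPM, and those named WT 41.5, 43.1 and 46.9 CPM. The groups overlapped through library 9, named C201R, which at 45.4 CPM lay below library 6, named WT, at 46.9 CPM. The means were 49.7 ± 2.31 and 43.4 ± 1.96 CPM, and Lars rose by 0.20 ± 0.04 in log2 units (edgeR adjusted p = 0.0408). By title the means were 48.2 ± 4.17 and 44.9 ± 3.03 CPM (log2 difference 0.10 ± 0.06, edgeR adjusted p = 0.817). In the undisputed libraries Lars had 51.6, 51.7, 50.4 and 49.7 CPM in C201R and 41.5, 46.9, 42.3 and 43.8 CPM in WT, with no overlap. That log2 difference was 0.23 ± 0.05 and did not pass with edgeR (adjusted p = 0.102), while DESeq2 called it (adjusted p = 0.0145). By library name the call was lost under 14 of 21 settings. These were the fits without the muscle-rich libraries (edgeR adjusted p = 0.420), with library number as a linear term (0.0783) and with limma on TPM (0.0790 and 0.0789), and the fits without library 1, 2, 3, 4, 5, 7, 8, 10, 11 or 12 (up to 0.174).

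Nars, the asparaginyl enzyme, had 260 to 266 CPM (median 263) in libraries named C201R and 247 to 259 CPM (median 253) in those named WT. The groups did not overlap, yet the log2 difference of 0.06 ± 0.02 is small and did not pass (edgeR adjusted p = 0.279). By title Nars overlapped, at 260 ± 7.63 against 256 ± 6.10 CPM (log2 difference 0.02 ± 0.03, edgeR adjusted p = 0.934). In the undisputed libraries it had 264 ± 3.07 against 253 ± 5.01 CPM without overlap (log2 difference 0.06 ± 0.03, edgeR adjusted p = 0.422).

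**Figure D4:**
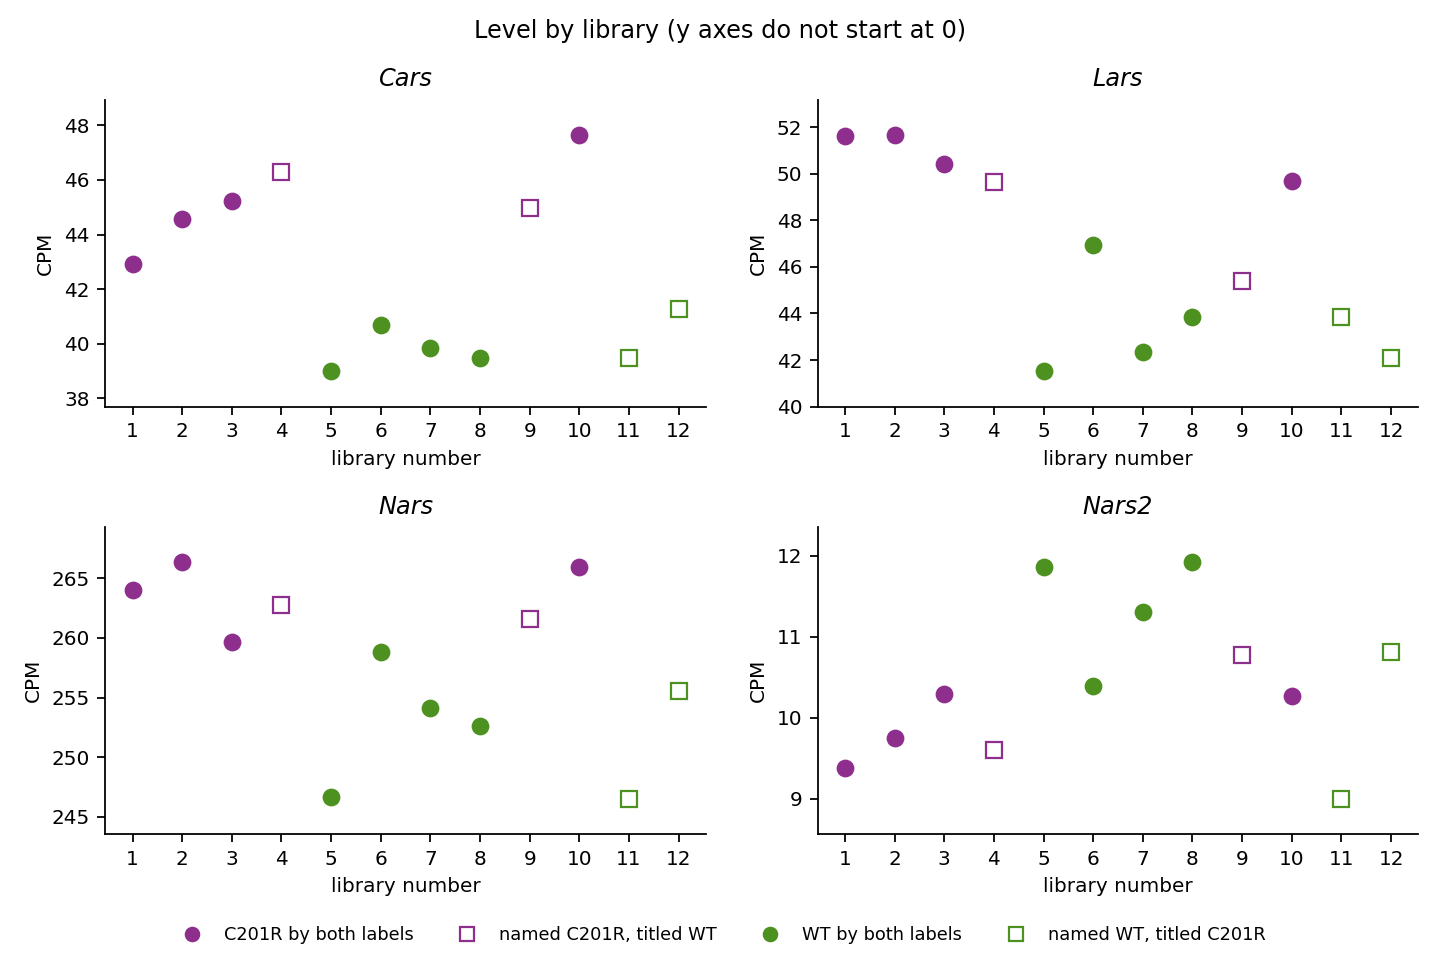
CPM of Cars, Lars, Nars and Nars2 in each of the 12 libraries, purple for libraries named C201R and green for those named WT, with open squares for the 4 libraries whose title gives the other genotype. The y axes do not start at 0. Purple points lie at 42.9 CPM and above for Cars and green points at 41.3 CPM and below, while Lars overlaps through library 9 and Nars2 overlaps through several libraries.

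No other cytosolic member passed. Rars (arginyl) had a log2 difference by library name of 0.10 ± 0.04 (edgeR adjusted p = 0.297), Tars of 0.09 ± 0.03 (0.322) and Eprs of 0.07 ± 0.03 (0.382). Iars, Vars and Sars, the isoleucyl, valyl and seryl enzymes, lay between 0.05 and 0.06, with edgeR adjusted p from 0.520 to 0.547. Iars is the least certain of these, since 14.7% of its 31-base words also occur in other GENCODE M21 genes, mostly in Gm4849. Dars (aspartyl), Qars (glutaminyl), Farsa and Farsb lay between 0.00 and 0.02. The 2 subunits of the phenylalanyl enzyme stood at 25.5 ± 0.810 against 25.2 ± 0.919 CPM (Farsa) and 51.5 ± 2.00 against 51.5 ± 1.34 CPM (Farsb). By title Farsa was among the cytosolic genes of lowest p, with 24.3, 26.0 and 26.4 CPM as lowest, median and highest in C201R, against 24.2, 24.8 and 25.7 CPM in WT. These groups overlapped (log2 difference 0.05 ± 0.03, edgeR adjusted p = 0.798). Dars by title was 51.7 ± 1.77 against 50.4 ± 1.22 CPM (log2 difference 0.04 ± 0.03, edgeR adjusted p = 0.850).

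The scaffolds did not pass in any comparison. Aimp1, which binds tRNA and holds complex members together, had 31.1, 34.6 and 37.7 CPM as lowest, median and highest in libraries named C201R and 31.9, 33.0 and 34.6 CPM in those named WT. The ranges overlapped across the whole WT range (log2 difference 0.09 ± 0.05, edgeR adjusted p = 0.499). Aimp2, the core scaffold, was 11.0 ± 0.668 against 11.1 ± 1.11 CPM (log2 difference -0.02 ± 0.08, edgeR adjusted p = 0.952). Eef1e1, the small scaffold also called p18, was 13.9 ± 0.963 against 14.2 ± 1.19 CPM (log2 difference -0.05 ± 0.07, edgeR adjusted p = 0.819). By title the 3 log2 differences were 0.01, -0.01 and -0.06, with edgeR adjusted p of at least 0.908. In the undisputed libraries they were 0.07, -0.04 and -0.07, with edgeR adjusted p of at least 0.728. Exons of Aimp2 share 487 bases with Eif2ak1 on the other strand.

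Among the mitochondrial enzymes the lowest p by title belonged to Pars2, Nars2 and Ears2, by library name to Nars2, Ears2 and Hars2, and in the undisputed libraries to Nars2, Ears2 and Aars2, and none of these passed. Nars2, the asparaginyl enzyme, had 9.38, 10.0 and 10.8 CPM as lowest, median and highest in libraries named C201R and 9.00, 11.1 and 11.9 CPM in those named WT. The groups overlapped, and library 11, named WT, had the lowest level of all. The log2 difference was -0.16 ± 0.06 by library name (edgeR adjusted p = 0.319) and -0.15 ± 0.06 by title (0.719). In the undisputed libraries Nars2 had 9.38, 9.75, 10.3 and 10.3 CPM in C201R and 11.9, 10.4, 11.3 and 11.9 CPM in WT, which did not overlap, and the log2 difference of -0.21 ± 0.07 did not pass (edgeR adjusted p = 0.228). By library name the sign of Nars2 depends on the unit. Its length in the deposited tables, which RSEM weights by isoform, ran from 1749 to 3139 bases between libraries, the longest being in library 5, and on log2(TPM + 1) its difference by library name was 0.03 (limma adjusted p = 0.943). On that scale the difference was -0.03 by title and -0.01 in the undisputed libraries (limma adjusted p = 0.976 and 0.992).

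Ears2, the mitochondrial glutamyl enzyme, had 5.84, 6.74 and 7.31 CPM as lowest, median and highest in libraries named C201R and 6.99, 7.49 and 8.06 CPM in those named WT. These ranges overlapped (log2 difference -0.13 ± 0.07, edgeR adjusted p = 0.457). By title Ears2 was 6.80 ± 0.744 against 7.45 ± 0.338 CPM (log2 difference -0.13 ± 0.06, edgeR adjusted p = 0.748). In the undisputed libraries it had 6.91, 5.84, 6.57 and 6.40 CPM in C201R and 8.04, 7.38, 7.06 and 7.60 CPM in WT. These did not overlap, with a log2 difference of -0.20 ± 0.08 (edgeR adjusted p = 0.343). Pars2, the mitochondrial prolyl enzyme, was 4.84 ± 0.453 against 4.18 ± 0.411 CPM by title (log2 difference 0.21 ± 0.09, edgeR adjusted p = 0.712), and its titled groups overlapped between 4.28 and 4.58 CPM. By library name its log2 difference was 0.13 ± 0.11 (edgeR adjusted p = 0.688). In all, the undisputed groups did not overlap for 3 higher genes, Cars, Lars and Nars, beside 3.82% of all genes, and for 2 lower genes, Nars2 and Ears2, beside 4.71%. None of the 32 passed there, beside 0.163% of all genes. In these libraries 12 of 13 cytosolic genes (median 0.05), 1 of 3 scaffolds (median -0.04) and 7 of 16 mitochondrial genes (median -0.01) had a log2 difference above 0, as did 52.1% of all genes (median 0.01).

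The remaining mitochondrial genes did not pass either. Hars2 was 21.8 ± 1.06 against 20.9 ± 0.485 CPM by library name (log2 difference 0.06 ± 0.04, edgeR adjusted p = 0.592). Its exons share 195 bases with its neighbour Hars on the other strand. Aars2, the mitochondrial alanyl enzyme, was 26.2 ± 1.01 against 24.5 ± 0.510 CPM in the undisputed libraries (log2 difference 0.08 ± 0.04, edgeR adjusted p = 0.415). Iars2, the most abundant after Lars2 and with 2148 exonic bases antisense to Rab3gap2 and 2010103J01Rik, was 70.6 ± 2.22 against 72.1 ± 1.57 CPM by library name (log2 difference -0.03 ± 0.03, edgeR adjusted p = 0.687), and Wars2, the least abundant in TPM, was 7.29 ± 0.526 against 7.45 ± 0.511 CPM (-0.02 ± 0.07, 0.944). Yars2, Sars2, Tars2, Rars2, Fars2, Mars2, Cars2 and Vars2 had log2 differences between -0.05 and 0.06 by library name, with edgeR adjusted p of at least 0.709.

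Lars2 ranged 2.98-fold between libraries, and its groups overlapped by either genotype label. In libraries named C201R it had 1364, 2191 and 3324 CPM as lowest, median and highest, and in those named WT 1150, 2690 and 3428 CPM. The lowest values were in library 7 (1150 CPM, named WT) and library 10 (1364 CPM, named C201R), and the highest in library 5 (3428 CPM, named WT) and library 3 (3324 CPM, named C201R). The log2 difference was -0.08 ± 0.27 by library name (edgeR adjusted p = 0.936) and -0.11 ± 0.24 by title (0.968). Lars2 shared 0.923% of its 31-base words with other GENCODE M21 genes, so overlap with annotated genes is small. Only exact words of annotated transcripts were compared, so this cannot tell whether reads come from sequence outside the annotation. Over the 12 libraries the log2 CPM of Lars2 went with that of Gm26917, which had 3.90 to 9.06 CPM. Gm26917 is a gene from a list of loci with ribosomal RNA-like sequence. Pearson's r was 0.86 (permutation p = 0.00016, adjusted 0.00032 over 2 relations) and Spearman's rho 0.82 (permutation p = 0.00194, adjusted 0.00388), and r was 0.85 without the 2 libraries farthest from the median of Gm26917. The other measured locus of that list, AY036118, had r of 0.46 (permutation p = 0.157) and rho of 0.21 (permutation p = 0.510). The relation was looked for after the spread of Lars2 had been seen, and what it comes from was not tested.

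**Figure D5:**
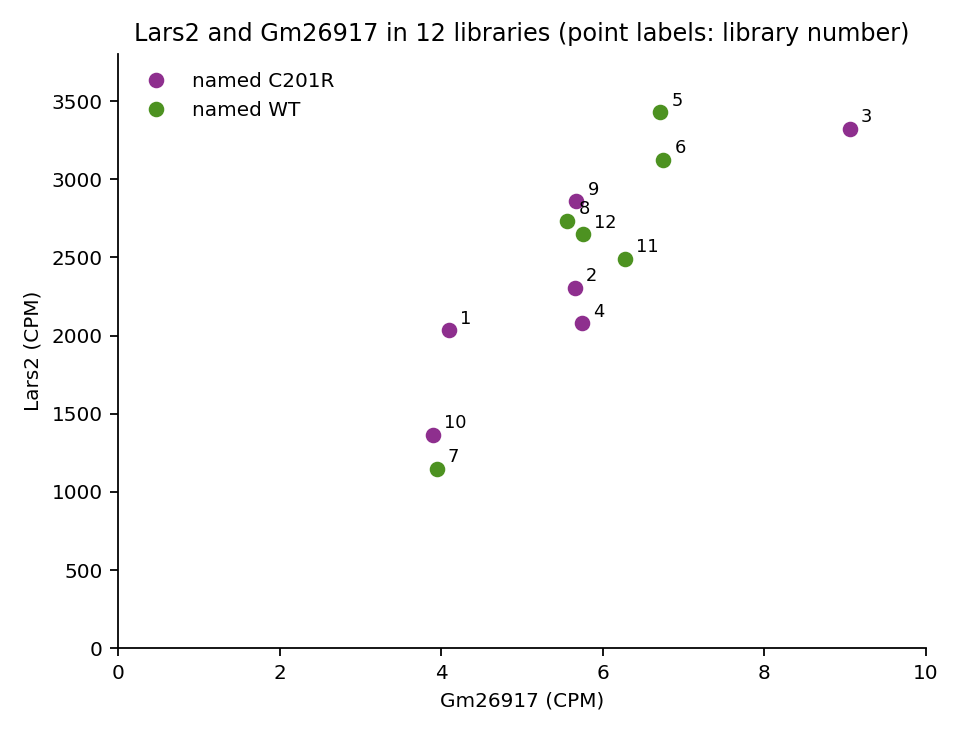
Lars2 against Gm26917 in CPM, 1 point per library labelled by its number, purple for libraries named C201R and green for those named WT. Lars2 runs from 1150 CPM in library 7 to 3428 CPM in library 5, and both colours spread over the whole range.

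The same values can be read by complex membership and by ATF4 response. These lists were drawn up with earlier results known, and differences between them were not tested. Over all genes, 50.9% were above 0 by library name, 50.7% by title and 52.1% in the undisputed libraries. By library name 0.169% of all genes were called higher. Among the genes described here, 9 were listed as part of the multi-synthetase complex, and any other genes of the complex were not counted. Of these 9 genes, 7 were above 0 by library name and 1, Lars, passed (median 0.06). Of the 7 cytosolic genes described here outside the complex, 6 were above 0 and 1, Cars, passed (median 0.05). By title 5 of 9 and 6 of 7 were above 0, with medians of 0.01 and 0.02 and none passing. Among 7 cytosolic genes known as ATF4-responsive (Cars, Eprs, Iars, Lars, Nars, Sars and Tars), all 7 were above 0 by library name with a median of 0.07 and 2 passed. The 6 other cytosolic genes had 5 above 0, a median of 0.02 and none that passed. By title these were 5 of 7 (median 0.02) and 5 of 6 (median 0.01), and in the undisputed libraries 7 of 7 (median 0.06) and 5 of 6 (median 0.04), again with none passing.

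Promoter sequences are shown for Iars and Tars because they are the 2 of 4 ATF4-responsive members with a promoter in the RefSeq table (GRCm38.p6) that hold the letters TGATGNAA, the core of the C/EBP-ATF response element. The table holds promoters of 25 of the 32 genes. Those of Cars, Lars, Nars, Rars, Vars, Hars2 and Pars2 were not analysed here. Iars lies at chr13:49681880-49682159 on the plus strand and Tars at chr15:11399629-11399908 on the minus strand, each shown 5′ to 3′ from 250 bases before the start site to 30 bases from it onward. Capitals mark the element, which reads on the opposite strand in both, and the E-box CACGTG.
Iars: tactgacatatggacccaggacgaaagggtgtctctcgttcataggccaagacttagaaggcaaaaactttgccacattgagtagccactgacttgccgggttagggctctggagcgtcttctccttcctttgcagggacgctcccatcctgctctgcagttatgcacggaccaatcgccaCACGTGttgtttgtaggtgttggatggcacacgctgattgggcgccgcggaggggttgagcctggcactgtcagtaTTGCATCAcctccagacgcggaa
Tars: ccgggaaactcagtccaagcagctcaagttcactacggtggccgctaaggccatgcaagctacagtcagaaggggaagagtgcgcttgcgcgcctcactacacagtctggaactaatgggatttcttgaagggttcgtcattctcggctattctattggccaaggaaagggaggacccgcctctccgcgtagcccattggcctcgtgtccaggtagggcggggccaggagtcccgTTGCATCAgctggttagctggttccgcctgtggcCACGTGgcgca
In Iars the element begins 7 bases after the start site and the E-box 69 bases before it, and in Tars the element begins 15 bases before and the E-box 19 bases after. Both motifs were searched on both strands over 300 bases, from 250 before the start site to 50 after, and they do not overlap each other here. A member gene was counted if any of its promoters in the table matched. TGATGNAA was found for 2 of 8 cytosolic, 0 of 3 scaffold and 0 of 14 mitochondrial genes. CACGTG was found for 3 of 8 cytosolic genes (Farsb, Iars and Tars), 0 of 3 scaffold genes and 1 of 14 mitochondrial genes (Ears2). Of 32851 single promoters in the table, 3.97% held TGATGNAA and 7.15% CACGTG. These shares count promoters and not genes, so they are not in the same unit. A match describes the letters only.

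Genes next to the synthetases in the same pathways give the setting. Beside them, 50.9% of all genes were above 0 by library name, and 0.169% were called higher. By title 50.7% of all genes were above 0, and in the undisputed libraries 52.1%. Among 7 neuropathy-linked synthetases 6 were above 0 by library name (median 0.09) and 1 passed, Gars, at 150 ± 4.20 against 136 ± 4.25 CPM (rose by 0.15 ± 0.03, edgeR adjusted p = 0.0343). By title 4 of 7 were above 0 and none passed, and in the undisputed libraries 6 of 7 with none passing. Of 28 ATF4 program genes outside the synthetases 26 were above 0 by library name (median 0.22) and 11 passed, all higher. They included Atf4 itself (rose by 0.18 ± 0.03, edgeR adjusted p = 0.0342), the glutathione-degrading enzyme Chac1 (0.57 ± 0.07, 0.00268), the mTORC1 brake Sesn2 (0.38 ± 0.04, 0.00133), the cationic and large neutral amino acid transporters Slc7a1 (0.41 ± 0.03, 6.56e-05) and Slc7a5 (0.26 ± 0.04, 0.0107), and the proline synthesis enzyme Aldh18a1 (0.23 ± 0.04, 0.0239). These 6 were picked after their values were seen, and the other 5 were Atf5, Slc7a3, Fgf21, Gdf15 and Adm2, the last 3 of which had fewer than 1 CPM in every library named WT. Fgf21, a secreted hormone, had 3.42 to 4.13 CPM in the 6 libraries named C201R, disputed libraries 4 and 9 included, and 0 to 0.0376 CPM in the 6 named WT, disputed libraries 11 and 12 included. In the undisputed libraries 25 of 28 were above 0 and 3 passed, and by title 21 of 28 were above 0 and none passed. The 2 synthetases that passed had log2 differences of 0.18 and 0.20, and whether these are smaller than those of Chac1, Sesn2 and Slc7a1 was not tested.

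Other parts of the translation machinery had no gene that passed by library name, where 0.715% of all genes passed and 50.9% were above 0. Cytosolic elongation factors had 3 of 7 genes above 0 (median -0.02), with Eef1a2 at -0.05 ± 0.04 and Eef1a1 at 0.03 ± 0.02. Mitochondrial translation factors had 4 of 9 above 0 (median 0.00), with the recycling factor Mrrf at -0.10 ± 0.05 and the elongation factor Tsfm at 0.07 ± 0.06. Genes that mature or modify mitochondrial tRNAs or complete their charging had 5 of 10 above 0 (median 0.00), with the amidotransferase subunit Gatc at 0.10 ± 0.04 (edgeR adjusted p = 0.301) and the tRNA 3′ processing enzyme Elac2 at -0.07 ± 0.04. Proofreading and related genes had 8 of 10 above 0 (median 0.04), with the selenocysteine pathway kinase Pstk at 0.20 ± 0.06 (edgeR adjusted p = 0.156) and Tarsl2, a paralog of the cytosolic threonyl enzyme, at 0.04 ± 0.03.

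Marker sums of several cell types had shifted but overlapping ranges by library name. The 5 measured motor neuron markers of 6 listed summed to 146 to 174 CPM in libraries named C201R and 167 to 236 CPM in those named WT, with none at 0. The 4 oligodendrocyte markers summed to 24125 to 27762 and 27023 to 29042 CPM, and the 4 neuron markers to 2564 to 2653 and 2607 to 2846 CPM. In the 8 undisputed libraries Cars, Lars, Nars, Nars2 and Ears2 did not overlap. The motor neuron sums (146 to 174 in C201R and 183 to 236 CPM in WT) and oligodendrocyte sums (24125 to 26620 and 27023 to 29032 CPM) did not overlap there either. Of all single genes, 4.71% were lower in C201R without overlap in these libraries. The neuron, astrocyte, microglia and Schwann sums overlapped there. By title the oligodendrocyte and motor neuron sums overlapped, the latter at 146 to 194 CPM in C201R and 150 to 236 CPM in WT. By library name, muscle (13 markers, 24.2 to 3423 and 25.0 to 2866 CPM) and leukocyte markers (9 markers, 102 to 155 and 80.6 to 186 CPM) overlapped widely. The 6 blood markers ranged from 590 to 2986 and 448 to 1273 CPM. In whole cord, fewer cells of a type and less RNA per cell cannot be told apart. The part of these markers in the differences of the synthetases was not tested.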

How the data were processed

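Total RNA of whole spinal cord was made into stranded polyA libraries and read as paired ends, per the labels' protocols. Each library has its own table of 38924 genes. Bowtie2 2.2.0 and RSEM 1.2.12 were used per the submitters' processing notes, but the genome build, annotation and strand setting were not given in the sources used. Per the file headers, the authors deposited RSEM's expected count, TPM and FPKM for each gene, with an isoform-weighted length. Reads that match more than 1 gene are shared out by RSEM, which makes paralogs and overlapping genes uncertain.

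Expected counts were rounded, filtered with filterByExpr over the 4 titled groups (17765 genes kept) and scaled by TMM. The test was edgeR's quasi-likelihood test (version 4.0.16, R 4.3.3) with titled sex as a term, fitted on all genes. Xist and Y-linked transcripts went against the titled sex in 6 libraries, so this term does not adjust for sex as read from them. P-values were adjusted by Benjamini-Hochberg over all genes tested, with a threshold of 0.05. Standard errors are the absolute log2 difference over the root of its F statistic. CPM are the same counts after TMM scaling. Levels between genes use the authors' deposited TPM. Deposited FPKM entered 1 alternative, a ratio within each library that the change of unit cannot alter. Expected-count sums per library, 27175421 to 38271405, set the precision, and reads carried no molecular identifiers. All 66 pairs of libraries differed by more than sampling noise (chi-square over its degrees of freedom 6.49 or more).

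The members, gene lists, marker lists and tests were chosen with earlier results of these data known. Values per library, their range, or their mean and SD are given for members that passed in any comparison. The same holds for the 3 members of lowest p in each class and comparison, and by level for the 3 highest and 3 lowest of each class. For scaffolds by title and in the undisputed libraries only log2 differences and adjusted p are given. From other lists up to 6 called genes are named, or otherwise the 2 of lowest p. Alternatives were RLE size factors, DESeq2 1.42.0, no filter, a mean above 1 CPM, limma 3.58.1 on log2(TPM + 1) and log2(TPM + 0.1), no sex term, library number as a linear term, no muscle-rich libraries, and leaving out each library. The class ratio without Lars2 was added after seeing the data. Positions, exon overlaps and shared 31-base words came from GENCODE M21, and promoters from RefSeq. Slc18a3, Gm42418 and Rn45s were not matched in the tables. No library was regrouped on its values. The fits were tested on simulated data. Permutation p-values are two-sided and use 100000 resamples. Joins, permutations and plots used scipy 1.17.1, numpy 2.4.6, matplotlib 3.10.9 and pandas 2.3.3 in Python 3.11.15.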

Additional observations from a re-analysis of the deposited data

Results flagged for a closer look

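In 9 of 128 groups of 6 libraries, 1 library stood far from the other 5 for a member gene (the gap to its nearest neighbour was large against the range of the group). Chance alone flags about 1 in 20 groups. Among libraries titled C201R these were library 1 for Farsa (24.3 CPM, next 25.7) and library 3 for Farsb (48.1 CPM, next 51.0). Among those titled WT they were library 4 for Tars (35.8 CPM, next 33.2) and library 5 for Aimp2 (8.99 CPM, next 10.9). Library 5 stood equally low for Aimp2 among libraries named WT (8.99 CPM).

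By library name, library 9 was low for Lars (45.4 CPM, next 49.6) among those named C201R, and it is one of the 4 libraries with differing labels. Library 4, another of these 4, was high for Eprs (154 CPM, next 146), and library 1 was high for Mars2 (9.85 CPM, next 8.88). Library 6 was high for Eprs (150 CPM, next 140) among those named WT. Leaving out library 9 raised the log2 difference of Lars by library name from 0.20 to 0.22, and it still passed (edgeR adjusted p = 0.0134).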

How the results depend on the processing

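No called value of a member changed sign under any setting run. Of 1888 values of single members under other settings, 150 had another sign than in the edgeR fit, all of members that did not pass. By title, no member passed under any of 21 settings, while over all genes DESeq2 called 18 and the fit with library number 8, against 0. By library name, 127 genes were called, against 335 with DESeq2, 41 and 42 with limma on log2(TPM + 1) and log2(TPM + 0.1), 235 with library number, 12 without the muscle-rich libraries, and 54 (without library 7) to 221 (without library 9) leaving out 1 library. The 2 cytosolic members called became 0 with either limma fit and without the muscle-rich libraries, 1 with library number, and 0 to 2 leaving out 1 library. The fit without the muscle-rich libraries had 2 libraries fewer per genotype in each comparison. By library name its log2 differences were 0.21 for Cars and 0.22 for Lars, against 0.18 and 0.20 with all libraries. In the 8 undisputed libraries, 29 genes were called, against 255 with DESeq2, 91 without the filter, 12 and 12 with limma, 70 without the sex term, 14 with library number, 1 without the muscle-rich libraries, and 5 (without library 1) to 119 (without library 10) leaving out 1. DESeq2 called 1 cytosolic member there, Lars, against 0. The cytosolic to mitochondrial ratio of 0.620 was 3.18 with medians and 4.18 without Lars2, whose level sets the sum. It was also 0.620 in FPKM, but within a library FPKM and TPM differ by a constant factor. The change of unit therefore cannot alter this ratio and does not check it. The cause of the other shifts was not tested. No paired analysis was possible because the libraries are numbered 1 to 12 and the groups share no number. Members with the fewest reads, such as Pars2 with 98 to 179 counts per library, carry the largest counting error.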
